A study of Mus musculus with 7 samples.

Results

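Fatty acid oxidation genes and targets of the PPAR receptors were followed in cells sorted from mouse femurs after exposure to a fat-rich or a fat-poor diet. The set held 32 genes chosen by symbol, each found once among the 42687 gene identifiers of the count table. They were sorted as positive for CD24 (from the gene Cd24a) and for CD29, which Itgb1 encodes, and are labelled skeletal stem cells of bone. C57BL/6 mice, 3 months old at the start, ate for 4 weeks a high fat diet with 60% fat (HFD, 3 libraries numbered 2 to 4) or a low fat diet with 10% fat (LFD, 4 libraries numbered 1 to 4). No transgene or deletion is named. The labels do not say whether a library held cells of 1 animal or of several pooled. They give no sex, but Xist had 0 counts in each HFD library, against 257 to 526 in each LFD library, and 4 Y-linked genes together had 2494 to 3405 counts in each HFD library, against 1 to 5 in each LFD library. Diet and sex therefore cannot be told apart in any difference given here.

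Fatty acids enter mitochondria as carnitine esters and are then shortened by repeated turns of beta-oxidation, in which acyl-CoA dehydrogenases pass electrons to the electron transfer flavoprotein (ETF). Peroxisomes carry out the first turns on very long chains and break down the hydrogen peroxide that this produces with catalase. Fatty acids also bind the nuclear receptors PPAR alpha, delta and gamma, which pair with retinoid X receptors (RXR) on DNA and switch on genes of fat uptake, storage and oxidation. The coactivator PGC-1 alpha strengthens that response in muscle, liver and brown fat.

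Total counts per library ran from 17391613 to 24681838, and values below are CPM, counts put on a common library size with TMM factors. The sorting genes were present, with Cd24a at 2074 ± 1160.1 CPM in HFD and 3467 ± 1446 CPM in LFD, and Itgb1 at 445 ± 59.7 CPM in HFD and 425 ± 57.8 CPM in LFD (SD, n = 3 and n = 4). Markers of other cells were present too. The 11 erythroid genes in the table, led by Hbb-bs and Hba-a1, took 2.62% to 10.6% of counts in HFD libraries and 10.3% to 14.4% in LFD libraries. Granulocyte markers took 1.01% to 1.60% in HFD and 0.106% to 0.543% in LFD, and monocyte and macrophage markers 0.186% to 0.200% in HFD and 0.0135% to 0.0778% in LFD. Reticular stroma markers, among them Lepr and Cxcl12, took 0.147% to 0.308% in HFD and 0.0174% to 0.0384% in LFD. Ptprc, the leukocyte gene that encodes CD45, measured 49.5 to 55.8 CPM in HFD and 0.117 to 24.7 CPM in LFD. White adipocyte markers took 0.00270% to 0.00291% of counts in HFD and 0.000285% to 0.00200% in LFD. Of these Adipoq (21.3 to 26.0 CPM in HFD, 0.0390 to 19.5 CPM in LFD) and Plin4 were higher in each HFD library than in any LFD library, and Fabp4 was lower (0.873 to 1.64 CPM in HFD, 1.83 to 9.77 CPM in LFD). Cidec, Lep, Retn and Cfd had 0 counts in every library, and Plin1 had counts in HFD 4 alone. None of the 14 marker lists passed after adjustment (exact permutation test of shares, two-sided, lowest adjusted p = 0.109, where the smallest unadjusted p that the 35 assignments allow is 0.0286). In bulk RNA, fewer cells of a type and less RNA per cell cannot be told apart.

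Promoters are shown for the genes on which the results below turn, as 1 set with higher values in HFD libraries (Slc25a20, Pex11a, Plin2) and 1 set whose values were highest in LFD libraries 2 and 3 (Ucp2, Cd36, Cat). Each runs from 250 bases before to 50 bases after the RefSeq start of the gene in the GRCm38.p6 build, 5′ to 3′ on the gene's strand. The Cd36 window lies inside the annotated gene (chr5:17781690-17888801, minus strand), not at its outermost start. Capitals mark the half-site that PPAR and RXR recognise (AGGTCA, or TGACCT on the other strand).
Slc25a20 (chr9:108661886-108662185, plus strand): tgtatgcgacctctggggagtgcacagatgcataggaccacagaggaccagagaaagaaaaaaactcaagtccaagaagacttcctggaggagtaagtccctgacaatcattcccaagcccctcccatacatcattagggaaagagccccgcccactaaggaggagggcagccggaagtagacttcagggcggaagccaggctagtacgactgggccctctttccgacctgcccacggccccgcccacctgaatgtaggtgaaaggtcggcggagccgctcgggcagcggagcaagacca
Pex11a (chr7:79743082-79743381, minus strand): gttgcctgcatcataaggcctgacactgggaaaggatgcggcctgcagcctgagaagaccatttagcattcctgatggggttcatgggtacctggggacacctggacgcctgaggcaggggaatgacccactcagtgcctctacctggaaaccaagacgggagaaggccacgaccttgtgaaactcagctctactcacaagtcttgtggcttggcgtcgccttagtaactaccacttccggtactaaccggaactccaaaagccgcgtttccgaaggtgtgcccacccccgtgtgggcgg
Plin2 (chr4:86670010-86670309, minus strand): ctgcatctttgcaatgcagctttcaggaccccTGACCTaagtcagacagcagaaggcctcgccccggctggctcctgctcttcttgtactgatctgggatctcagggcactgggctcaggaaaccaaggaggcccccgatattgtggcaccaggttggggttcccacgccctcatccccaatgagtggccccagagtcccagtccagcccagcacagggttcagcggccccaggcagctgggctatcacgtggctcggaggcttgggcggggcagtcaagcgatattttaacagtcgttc
Ucp2 (chr7:100493108-100493407, plus strand): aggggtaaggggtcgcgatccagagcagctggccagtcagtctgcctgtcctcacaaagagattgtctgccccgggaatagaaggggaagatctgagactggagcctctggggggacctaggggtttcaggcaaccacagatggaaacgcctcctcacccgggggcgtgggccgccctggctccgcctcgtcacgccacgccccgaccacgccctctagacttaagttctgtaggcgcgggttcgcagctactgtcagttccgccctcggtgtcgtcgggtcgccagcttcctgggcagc
Cd36 (chr5:17835847-17836146, minus strand): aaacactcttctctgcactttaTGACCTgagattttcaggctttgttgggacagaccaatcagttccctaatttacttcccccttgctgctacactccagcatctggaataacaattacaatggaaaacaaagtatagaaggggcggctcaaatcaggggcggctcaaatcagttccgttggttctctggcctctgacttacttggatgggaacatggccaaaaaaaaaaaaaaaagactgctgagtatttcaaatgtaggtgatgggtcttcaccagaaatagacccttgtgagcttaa
Cat (chr2:103485104-103485403, minus strand): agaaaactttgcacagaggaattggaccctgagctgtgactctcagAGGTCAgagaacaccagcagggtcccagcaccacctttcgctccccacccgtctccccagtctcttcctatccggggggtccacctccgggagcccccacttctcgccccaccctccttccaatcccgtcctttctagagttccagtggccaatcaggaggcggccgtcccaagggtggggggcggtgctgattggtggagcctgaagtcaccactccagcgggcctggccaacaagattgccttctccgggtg

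The half-site stood in 6 of 30 windows of the 29 members with a promoter in the table (Acadm, Acadvl, Cat, Cd36, Cpt1a and Plin2), and in 16.3% of all 32851 windows of that length. It was present in both sets shown. The full element, 2 half-sites in direct repeat (AGGTCA, then any base N, then AGGTCA), was in none of the member windows and in 0.0396% of all windows. Looser forms of the element and regions outside these windows were not searched. The erythroid motifs AGATAA (bound by GATA factors) and CCACACCC (bound by KLF1) were in 2 member windows each (Acadvl and Pdk4, Acadm and Fabp3), and in 11.2% and 3.56% of all windows. All motifs were searched on both strands.

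Levels per length put uncoupling protein 2, catalase and the fatty acid translocase far above the enzymes of beta-oxidation. Ucp2, a carrier of the inner mitochondrial membrane, averaged 299 CPM per kilobase in HFD and 627 in LFD. Cat averaged 212 in HFD and 396 in LFD, and Cd36 131 in HFD and 287 in LFD. Among the enzymes of beta-oxidation Acadl, the long-chain acyl-CoA dehydrogenase, came first with 40.1 CPM per kilobase in HFD and 57.4 in LFD, and Acads, its short-chain relative, last with 4.72 in HFD and 4.25 in LFD. The ranges of Acadl and of Acaa2, next in order, overlapped. At the other end stood the 3 regulators, the highest value among them being 0.528 CPM per kilobase for Ppargc1a in LFD 3.

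**Figure D1:**
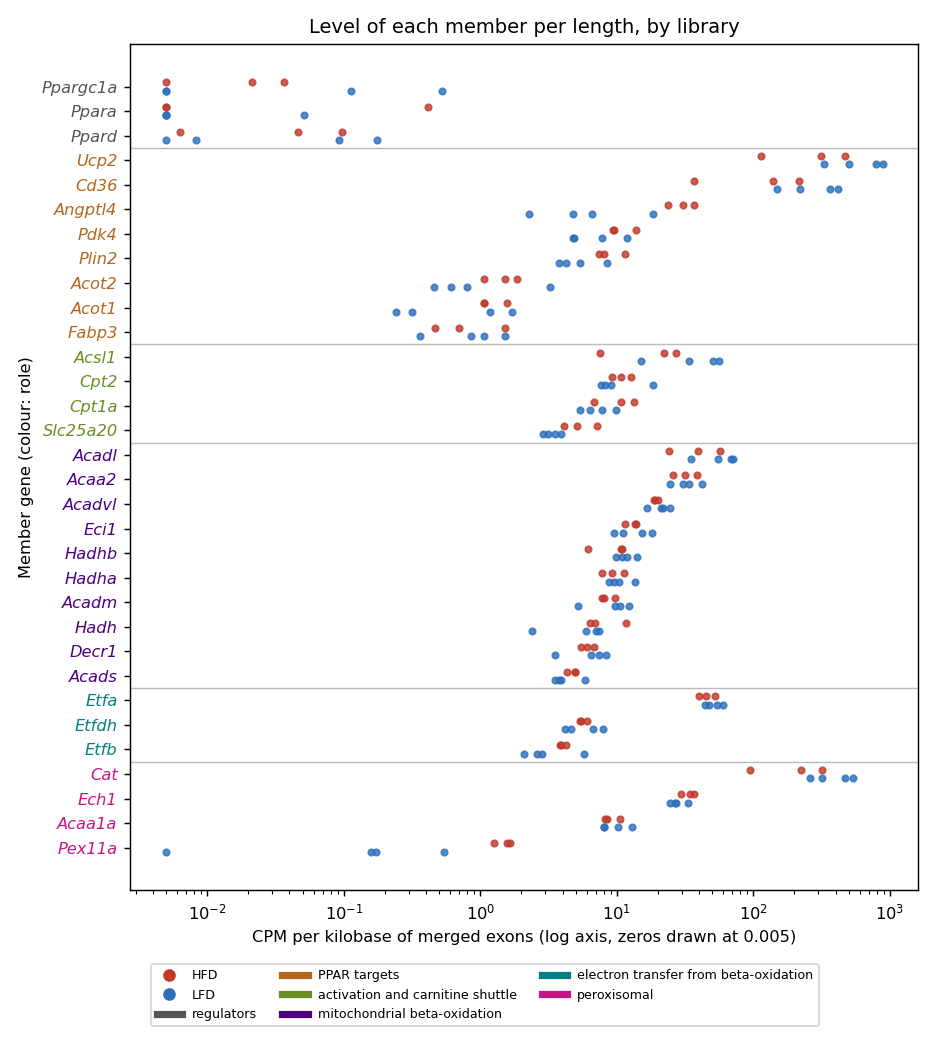
Level of each member in each library as CPM per kilobase of merged exons, on a log axis, by role, with HFD libraries drawn above LFD libraries within a gene. Ucp2, Cat and Cd36 lie at the right, and the regulators Ppara, Ppard and Ppargc1a at the left.

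The receptors and the coactivator were close to the limit of detection. Ppara, the receptor that drives fatty acid oxidation in liver, had 0, 33 and 0 counts in HFD 2, 3 and 4, against 5, 0, 0 and 0 counts in LFD 1 to 4. Ppard, the receptor found in most tissues, had 10, 15 and 1 counts in HFD, against 34, 0, 1 and 14 counts in LFD. Ppargc1a, which encodes PGC-1 alpha, had 4, 5 and 0 counts in HFD, against 0, 0, 56 and 15 counts in LFD. For each gene 1 or 2 libraries held most of the counts, and the diets overlapped. Ppara and Ppargc1a did not pass the filter on low counts. Ppard did, with a log2 fold change (HFD against LFD) of -0.49 ± 1.56 (SE). Of 2 other receptor genes looked at beside them, Pparg, which encodes PPAR gamma, averaged 1.96 ± 1.001 CPM in HFD and 1.40 ± 1.23 CPM in LFD. Rxra, which encodes an RXR partner, averaged 20.8 ± 10.3 CPM in HFD and 12.4 ± 7.55 CPM in LFD (all SD, n = 3 and n = 4).

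Of 30 members tested, 0 passed an adjusted p of 0.05 in edgeR's quasi-likelihood test over all 14304 genes, where 0.035% of genes passed. DESeq2 and limma-voom with quality weights also called 0 members, beside 2.21% and 0.182% of all genes. An unadjusted p under 0.05 was seen for 3 members with higher values in HFD (5.18% of all genes) and 0 with lower values (2.35% of all genes). The same 3, Angptl4, Slc25a20 and Pex11a, were the members whose HFD libraries all lay above every LFD library (8.4% of all genes), and 0 lay below (3.47%). Of these, Pex11a entered the test mainly through its HFD libraries. The count of 3 higher was 1 (Angptl4) without HFD 3. The count of 0 lower was 3 (Ucp2, Cd36 and Cat) without HFD 4 or in DESeq2, and 2 (Ucp2 and Acsl1) without LFD 1. Shares of all genes in those settings are not given here, so these counts have no background beside them.

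PPAR targets did not move as 1 group. Of 8 tested, 5 had higher and 3 lower values in HFD, and log2 fold changes ran from -1.13 to 1.93 around a median of 0.37. Angptl4 (chr17:33773750-33781830, minus strand, GRCm38) encodes a secreted inhibitor of lipoprotein lipase. It measured 131, 108 and 83.8 CPM in HFD 2, 3 and 4, against 65.0, 8.07, 23.2 and 16.8 CPM in LFD 1 to 4. Every HFD library lay above every LFD library, with LFD 1 closest to them. The means were 108 ± 23.7 CPM in HFD and 28.3 ± 25.3 CPM in LFD (SD), a log2 fold change of 1.93 ± 0.62 (SE, edgeR unadjusted p = 0.0142, adjusted p = 0.480). Without LFD 1 the log2 fold change was 2.75 (adjusted p = 0.164), and over all alternatives adjusted p ran from 0.0596 to 0.99998.

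Plin2 and Pdk4 had smaller differences in the same direction. Plin2, which coats lipid droplets, measured 40.1, 28.3 and 26.1 CPM in HFD 2, 3 and 4, against 19.0, 13.1, 14.9 and 29.7 CPM in LFD 1 to 4 (log2 fold change 0.71 ± 0.33). LFD 4 lay within the HFD range. Pdk4, the kinase that shuts off pyruvate dehydrogenase when fat is burned, measured 32.8, 33.2 and 48.6 CPM in HFD, against 27.2, 16.96, 42.0 and 16.8 CPM in LFD (0.57 ± 0.36). Here LFD 3 lay within the HFD range. Neither passed at an unadjusted p of 0.05 in edgeR.

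Ucp2 and Cd36 were the PPAR targets with the largest differences toward LFD. Ucp2 measured 796, 2189.9 and 3285 CPM in HFD 2, 3 and 4, against 2307, 5544, 6185 and 3487 CPM in LFD 1 to 4. HFD 4 lay above LFD 1, so that the groups overlapped, and HFD 2 was lowest of all 7 libraries. Its log2 fold change was -1.07 ± 0.56 (SE, edgeR unadjusted p = 0.0907). Cd36, the receptor that takes up long-chain fatty acids, measured 132, 504 and 777 CPM in HFD, against 535, 1316, 1494 and 782 CPM in LFD. HFD 2 was again lowest and LFD 3 highest, and the log2 fold change was -1.13 ± 0.61 (SE, edgeR unadjusted p = 0.101).

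The other PPAR targets were scarce. Acot1, a cytosolic acyl-CoA thioesterase, measured 4.19, 6.13 and 4.15 CPM in HFD, against 6.66, 0.939, 1.24 and 4.59 CPM in LFD. Acot2, its mitochondrial relative, measured 3.35, 4.10 and 2.34 CPM in HFD, against 1.01, 7.07, 1.74 and 1.33 CPM in LFD. The diets overlapped in both, and LFD 1 was highest for Acot1 while LFD 2 was highest for Acot2. Acot1 and Acot2 are near copies, and 33.6% of the 50-base stretches of the Acot1 transcript and 27.7% of those of Acot2 also occur in other Acot genes, so reads may have been shared or dropped. Fabp3, the fatty acid binding protein of heart and muscle, measured 1.257, 0.579 and 0.382 CPM in HFD, against 0.701, 1.25, 0.870 and 0.296 CPM in LFD. Of its stretches 37.3% also occur elsewhere, mostly in Fabp3-ps1.

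**Figure D2:**
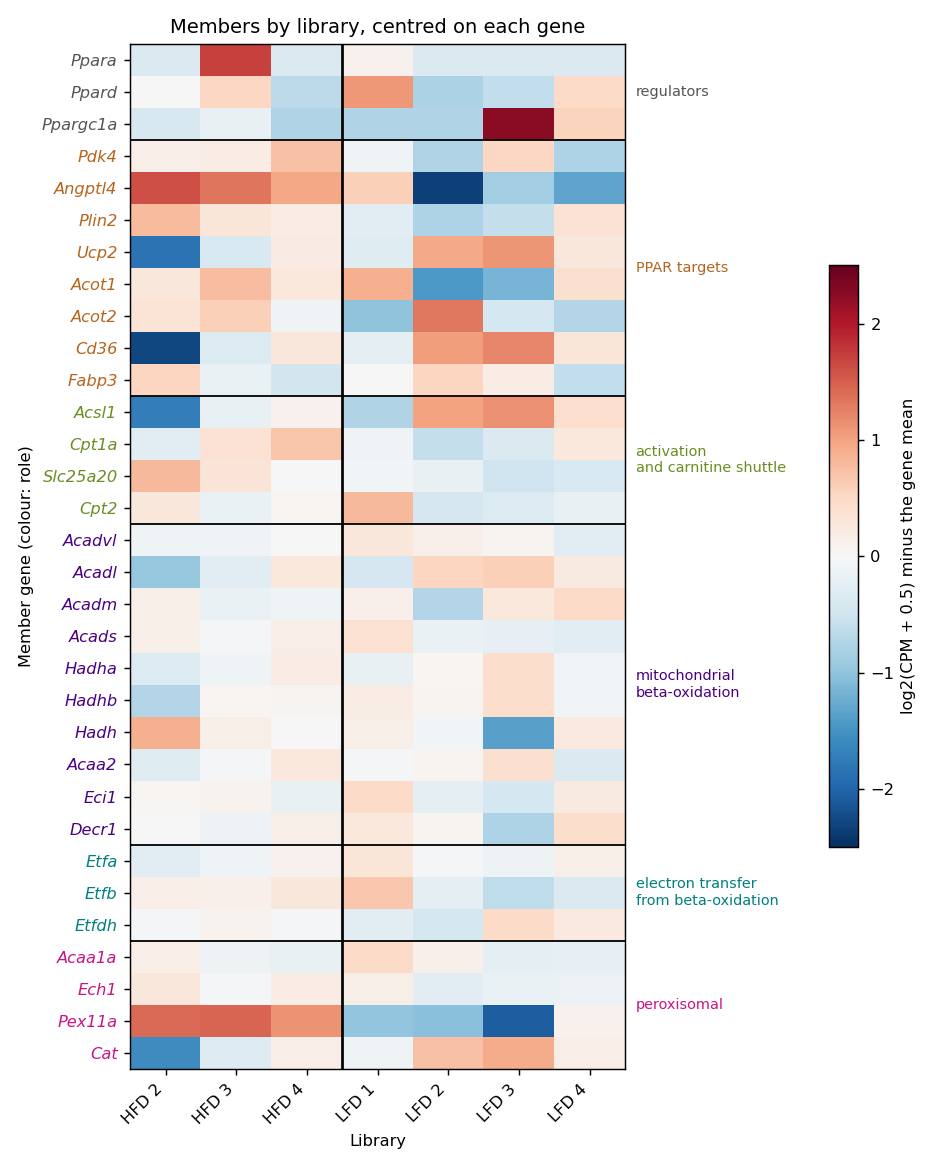
Members (rows, by role) in each library (columns, HFD left of LFD), as log2(CPM + 0.5) minus the mean of the gene over the 7 libraries. Angptl4 and Pex11a are red in HFD columns, while Ucp2, Cd36, Acsl1 and Cat are darkest blue in HFD 2 and red in LFD 2 and LFD 3.

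Fatty acid activation and the carnitine shuttle gave 3 members with higher and 1 with lower values in HFD, and their median log2 difference was 0.24. Slc25a20, the carrier that exchanges acylcarnitine for carnitine across the inner membrane, measured 34.8, 24.6 and 19.8 CPM in HFD 2, 3 and 4, against 18.8, 17.2, 13.9 and 15.1 CPM in LFD 1 to 4. The groups did not overlap, but HFD 4 and LFD 1 were near each other. Its log2 fold change was 0.70 ± 0.27 (SE, edgeR unadjusted p = 0.0299, adjusted p = 0.608), and 0.45 without HFD 2 (unadjusted p = 0.157). Cpt1a, which makes the acylcarnitine and sets the rate of the pathway, measured 52.3, 81.3 and 102 CPM in HFD, against 59.0, 41.3, 48.8 and 75.6 CPM in LFD (0.48 ± 0.29). LFD 1 and LFD 4 lay within the HFD range. Cpt2, which turns acylcarnitine back into acyl-CoA, averaged 26.0 ± 4.16 CPM in HFD and 26.0 ± 12.3 CPM in LFD (SD, n = 3 and n = 4).

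Acsl1, which activates long-chain fatty acids with coenzyme A, did not follow the shuttle genes. It measured 79.2, 233 and 284 CPM in HFD 2, 3 and 4, against 157, 529, 587 and 356 CPM in LFD 1 to 4. HFD 2 was lowest and LFD 2 and 3 were highest, as for Ucp2 and Cd36. Its log2 fold change was -1.04 ± 0.56 (SE, edgeR unadjusted p = 0.0999).

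Group differences were small for the core enzymes of mitochondrial beta-oxidation, though single libraries of some of these enzymes lay far apart. Of 10 tested, 2 had higher and 8 lower values in HFD, log2 fold changes ran from -0.52 to 0.55 around a median of -0.10, and 0 had an unadjusted p under 0.05. The groups overlapped for each of the 10. Acadl measured 48.6, 78.9 and 114 CPM in HFD 2, 3 and 4, against 70.1, 138, 143 and 109.7 CPM in LFD 1 to 4 (-0.52 ± 0.35), with LFD 2 and LFD 3 above all other libraries. The trifunctional protein, which performs the last steps on long chains, had log2 fold changes of -0.16 ± 0.22 for its subunit gene Hadha and -0.33 ± 0.25 for Hadhb. Of the 50-base stretches of Hadhb 62.4% also occur in Gm13910 or Gm9108, so its reads may have been shared or dropped. Acadvl, the very long-chain dehydrogenase, averaged 51.6 ± 2.04 CPM in HFD and 56.7 ± 9.01 CPM in LFD, and Acadm, the medium-chain one, 33.4 ± 4.00 CPM in HFD and 36.7 ± 11.7 CPM in LFD (SD, n = 3 and n = 4). Of the stretches of Acadvl 24% also occur in Dvl2, an overlapping gene on the opposite strand, so its reads may have been shared or dropped. Hadh, the short-chain hydroxyacyl-CoA dehydrogenase, averaged 41.4 ± 14.7 CPM in HFD and 28.3 ± 11.4 CPM in LFD (0.55 ± 0.41), with HFD 2 highest at 58.3 CPM and LFD 3 lowest at 11.8 CPM. The rest, namely Acads, the thiolase Acaa2 and the isomerase and reductase Eci1 and Decr1 that prepare unsaturated chains, had log2 fold changes from -0.07 to 0.15.

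Electron transfer from beta-oxidation also had small group differences. Etfa, the alpha subunit of ETF, measured 73.5, 82.7 and 95.7 CPM in HFD 2, 3 and 4, against 111, 87.2, 81.3 and 99.2 CPM in LFD 1 to 4, and the diets overlapped. It averaged 84.0 ± 11.1 CPM in HFD and 94.6 ± 13.1 CPM in LFD. Etfdh, which hands the electrons on to ubiquinone, averaged 42.2 ± 2.55 CPM in HFD and 43.7 ± 13.1 CPM in LFD (SD, n = 3 and n = 4). The log2 fold change was -0.17 ± 0.19 for Etfa and -0.05 ± 0.26 for Etfdh. Etfb, the partner subunit, averaged 4.66 ± 0.272 CPM in HFD and 3.85 ± 1.91 CPM in LFD, far under Etfa. Of its 50-base stretches 67.3% also belong to Gm45233, an overlapping gene on the same strand that had 0 counts, so the Etfb level may be understated.

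Peroxisomal members split in the manner of the PPAR targets, with 2 higher and 2 lower in HFD and a median log2 fold change of 0.07. Pex11a, which promotes the division of peroxisomes and is itself a PPAR alpha target, measured 5.03, 5.21 and 4.01 CPM in HFD 2, 3 and 4, against 0.546, 0.501, 0 and 1.73 CPM in LFD 1 to 4. The groups did not overlap, at low counts (336 over the HFD libraries and 57 over the LFD libraries). The log2 fold change was 2.76 ± 1.19 (SE, edgeR unadjusted p = 0.0487, adjusted p = 0.658). With each library left out in turn it ran from 2.37 to 3.73. All 3 HFD libraries but 2 of 4 LFD libraries reached the level that the filter asks for, so its entry into the test rested mainly on HFD. Cat encodes catalase, which red cells hold in large amounts. It measured 248, 586 and 826 CPM in HFD, against 679.6, 1219, 1408 and 828 CPM in LFD (-0.90 ± 0.45, edgeR unadjusted p = 0.0828). HFD 4 and LFD 4 were almost level and HFD 2 was lowest. Ech1, an isomerase of both organelles, averaged 76.6 ± 8.37 CPM in HFD and 63.8 ± 8.69 CPM in LFD (0.26 ± 0.19). The thiolase Acaa1a averaged 39.9 ± 5.49 CPM in HFD and 43.4 ± 10.5 CPM in LFD (-0.12 ± 0.24), with 35.1% of its stretches shared with other genes, mostly Acaa1b.

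Set side by side, median log2 fold changes were 0.37 for PPAR targets, -0.10 for mitochondrial beta-oxidation enzymes and 0.07 for peroxisomal members, where the median of all genes tested was 0.02. With each library left out in turn they ran from 0.15 (without LFD 3) to 0.39 (without HFD 4) for PPAR targets, -0.16 (without HFD 4) to -0.06 (without LFD 1) for beta-oxidation enzymes and -0.03 (without HFD 2) to 0.21 (without LFD 1) for peroxisomal members. For activation and carnitine genes they ran from 0.11 (without LFD 2) to 0.45 (without LFD 1), and for electron transfer genes from -0.18 (without LFD 2) to 0.10 (without LFD 3), around medians of 0.24 and -0.05. The spread was wider than these medians differ. Log2 fold changes of PPAR targets spanned -1.13 to 1.93 and those of peroxisomal members -0.90 to 2.76, while all 10 beta-oxidation enzymes lay between -0.52 and 0.55. The value of 2.76 is that of Pex11a, which entered the test mainly through HFD, and Ech1 was next at 0.26. No test was made between the roles, since members of a role are not replicates of a condition. Nor do the roles part PPAR targets from all other genes. Cpt1a, Acsl1, Slc25a20 and Pex11a are known targets too, but were kept by enzyme or organelle role.

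**Figure D3:**
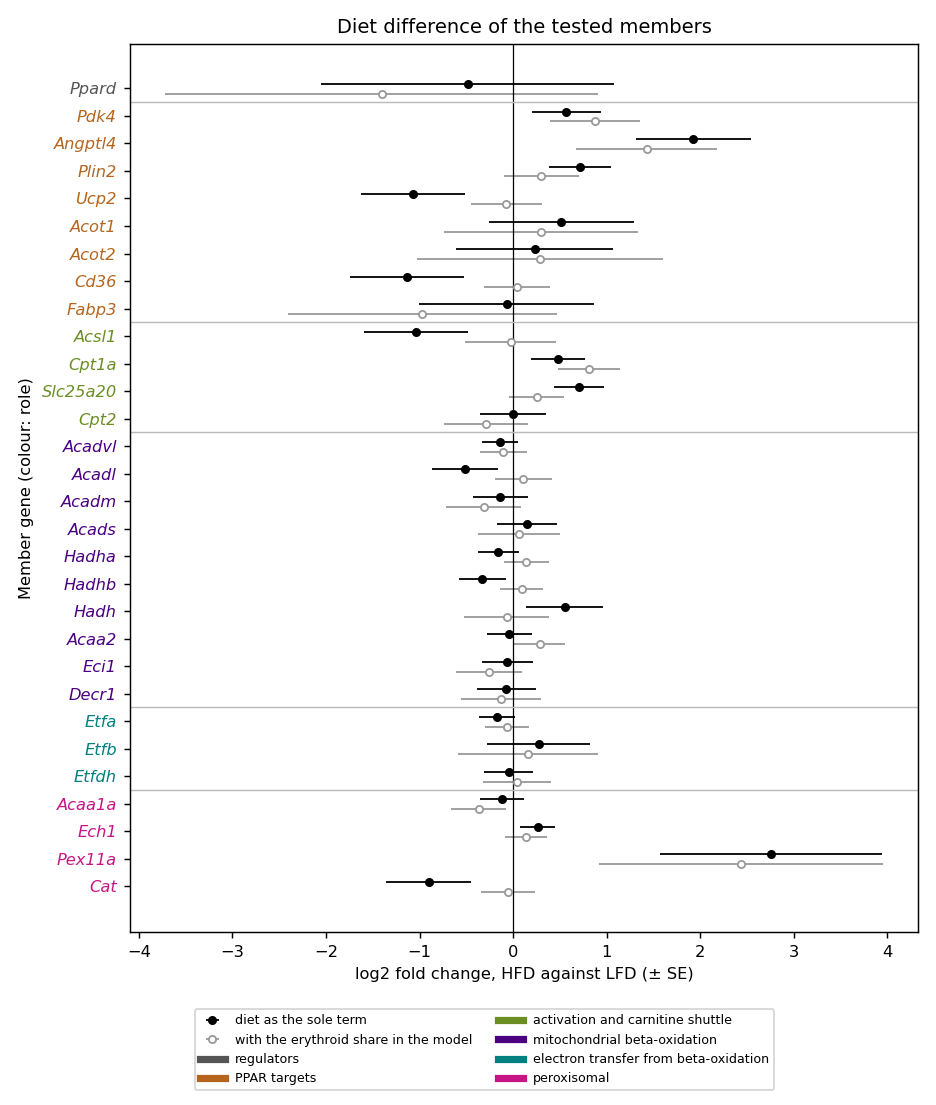
Log2 fold change (HFD against LFD, ± SE) of the 30 tested members by role, with diet as the sole term (filled) and with the erythroid share of counts as a covariate (open). Ucp2, Cd36, Acsl1 and Cat lie between -1.13 and -0.90 when filled and between -0.07 and 0.04 when open, while Angptl4 and Pex11a have 1.93 and 2.76 when filled and 1.43 and 2.43 when open.

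Ucp2, Cd36 and Cat ranked the 7 libraries identically. From low to high the order was HFD 2, HFD 3, LFD 1, HFD 4, LFD 4, LFD 2 and LFD 3, which is also the order of the libraries by the share of counts in erythroid markers (2.62%, 7.46%, 10.3%, 10.6%, 11.3%, 13.0% and 14.4%). These were 3 of 30 tested members, where 0.664% of all genes had that order and 3 of 11 erythroid genes did. The comparison with this order was chosen after the values were seen. Acsl1, and the carnitine acetyltransferase gene Crat from outside the set, had the order of the sorting gene Cd24a, in which LFD 1 and HFD 3 change places (2.11% of all genes). CD24 is also carried by mouse erythroid cells, and the part of such cells in the values of these genes was not tested.

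With the erythroid share in the model, the differences of these genes were close to 0. Those of Angptl4 and Pex11a stayed larger but had no unadjusted p under 0.05. Ucp2, Cd36 and Cat rank the libraries as that share does, and Acsl1 nearly so. The model was thus bound to shrink their differences and is no separate test of them. Log2 fold changes became -0.07 ± 0.38 for Ucp2, 0.04 ± 0.35 for Cd36, -0.03 ± 0.49 for Acsl1 and -0.05 ± 0.29 for Cat (SE). In the same model they were 1.43 ± 0.75 for Angptl4, 2.43 ± 1.51 for Pex11a and 0.25 ± 0.29 for Slc25a20. Cpt1a then had 0.81 ± 0.33 and was the 1 member with higher values at an unadjusted p under 0.05 (edgeR's model over all genes, unadjusted p = 0.0446, adjusted p = 0.99998), where 2.52% of all genes were. The erythroid share averaged 6.88% ± 4.00 in HFD and 12.3% ± 1.79 in LFD (SD, exact permutation test, adjusted p = 0.109), so the share and the diet are partly aligned in this model. Reticular stroma, granulocyte, and monocyte and macrophage shares were higher in each HFD library than in any LFD library, as were Angptl4, Slc25a20 and Pex11a. The same held for white adipocyte shares (lowest in HFD 0.00270%, highest in LFD 0.00200%). It held narrowly for B lineage shares (lowest in HFD 0.00428%, highest in LFD 0.00424%). Within HFD, Angptl4 and Slc25a20 had the order of the reticular share. Within LFD both were highest in LFD 1, while that share was highest in LFD 2. Orders of so few libraries cannot show a source, and no share of all genes with these orders is given. The part of the cells of these lists in the higher values of Angptl4, Slc25a20 and Pex11a was not tested.

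**Figure D4:**
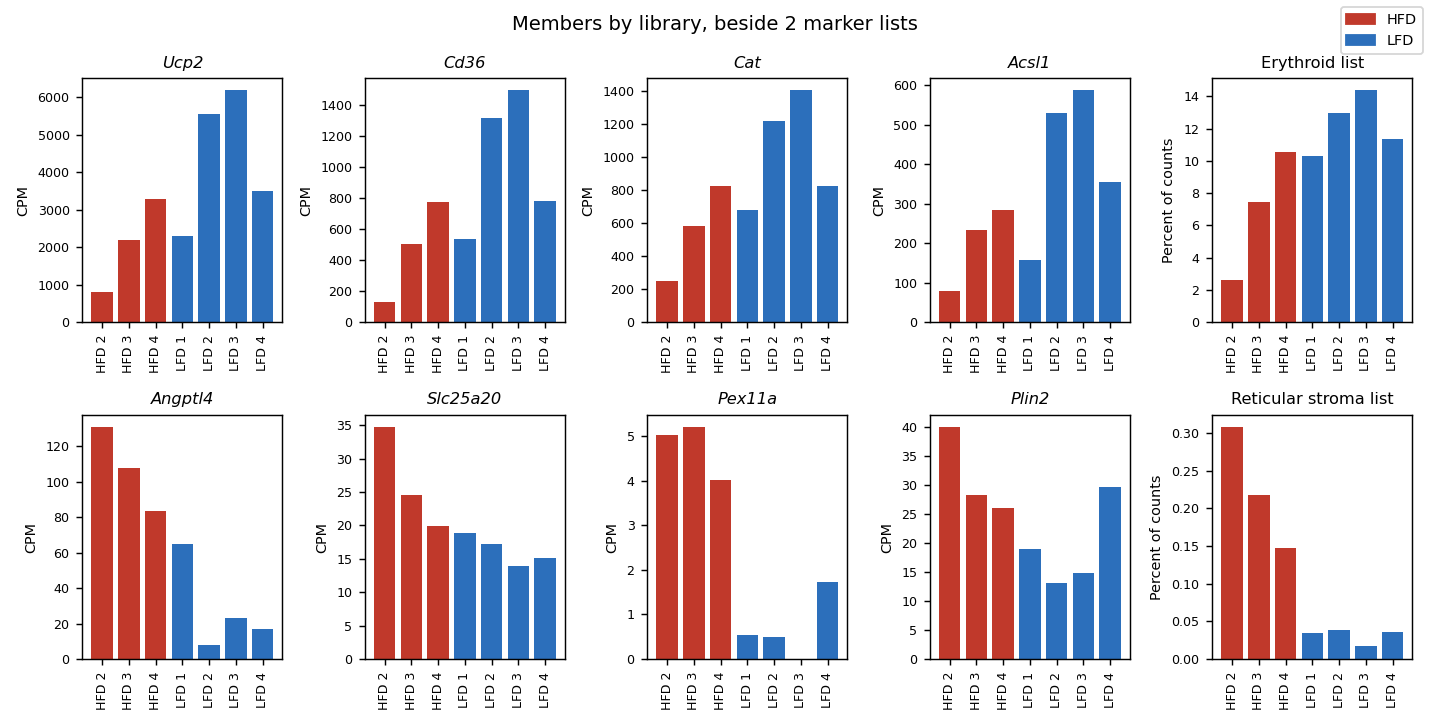
CPM of 8 members in each library (HFD red, LFD blue), beside the percent of counts in the erythroid list (top right) and in the reticular stroma list (bottom right). The top row is lowest in HFD 2 and highest in LFD 3 in each panel, and Angptl4, Slc25a20 and Pex11a in the bottom row are higher in each HFD library than in any LFD library.

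Outside the set, 112 other genes of the pathway were looked at, of which 93 were tested. An unadjusted p under 0.05 was found for 6 with higher values in HFD (5.18% of all genes tested) and 0 with lower values (2.35%). Of the 6, Plin5 and Rxrg passed the filter through HFD alone, and 1 LFD library reached its level for Plin4. After adjustment 0 passed in edgeR (lowest adjusted p = 0.309). Among other PPAR targets 13 were tested and 11 of these were higher in HFD, the median log2 fold change being 1.22. The other 12 of the 25 listed, among them Fabp1, Ucp1, Cyp4a10, Pck1 and Cidec, did not pass the filter. Of those that did, Plin5 passed it through HFD alone and Plin4 with 1 LFD library at its level. Neither the count of 11 nor the median therefore stands for the list. Lpl, the lipase that Angptl4 inhibits, measured 51.2, 33.5 and 28.0 CPM in HFD 2, 3 and 4, against 11.3, 20.1, 14.2 and 18.9 CPM in LFD 1 to 4. The groups did not overlap (log2 fold change 1.22 ± 0.31, edgeR unadjusted p = 0.00396, adjusted p = 0.309). DESeq2 called it (adjusted p = 0.0324) and limma-voom did not (adjusted p = 0.132). It was the 1 DESeq2 call among these 93 genes, where 2.21% of all genes were called. With the erythroid share in edgeR's model its log2 fold change was 0.78 ± 0.37 (unadjusted p = 0.0719). Plin5, a droplet coat protein of oxidative tissues, had 28, 14 and 12 counts in HFD and 0 in each LFD library, at least 19.96-fold higher when 3 counts over the LFD group are taken as the floor. Plin4, a relative, had 31, 36 and 73 counts in HFD, against 18, 4, 8 and 5 in LFD (edgeR unadjusted p = 0.0331).

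The remaining lists were close to even. Other peroxisomal genes gave 18 higher and 10 lower of 28 tested (median 0.09), with the lipid carrier Scp2 at 0.56 ± 0.23 and the import factor Pex2 at 0.42 ± 0.18 (edgeR unadjusted p = 0.0377 and 0.0495). Other mitochondrial genes gave 10 higher and 9 lower of 19 tested (median 0.01), and other activation and carnitine genes 5 and 5 of 10 (median -0.04). Of other regulators 14 were higher and 9 lower of 23 tested (median 0.09). Rxrg, an RXR partner of the PPARs, had 37, 24 and 26 counts in HFD, against 4, 0, 0 and 0 in LFD. It entered the test through the HFD libraries alone (edgeR unadjusted p = 0.0125, adjusted p = 0.453).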

How the data were processed

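RNA was measured in 7 libraries of CD24+CD29+ cells sorted from mouse femurs, 3 from HFD and 4 from LFD mice. Per the labels' protocols, RNA was isolated with RNeasy columns, amplified with SMART-Seq v4, made into Nextera XT libraries and read paired-end. SMART-Seq does not mark strand, so antisense reads are not told apart, and copies made by amplification are not independent molecules. Per the submitters' processing notes, the build was mm10 and the tools included STAR 2.5.2b and HTSeq 0.11.2, besides bcl2fastq 2.20, DESeq2 1.26.0 and cutadapt. The values used are raw counts per gene as deposited, with no normalization. The table has 42687 identifiers, and 437 without a symbol (0.0138% to 0.0216% of counts) were kept.

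Genes reaching 10 counts at the median library size (0.479 CPM) in 3 libraries were tested, 14304 in all, with edgeR 4.0.16 (R 4.3.3), TMM scaling, a robust quasi-likelihood fit, no term but diet, and p-values adjusted over all of them after Benjamini and Hochberg. The 3 HFD and 4 LFD libraries share 1 estimate of the spread. Fold changes use a prior count of 2. Alternatives were RLE scaling, no filter, DESeq2 1.42.0, limma-voom (limma 3.58.1) with quality weights, each library left out, a replicate block and, added for single members after seeing the data, the log2 erythroid share as a covariate. On simulated data with the real means and library sizes (13559 genes tested), the HFD against LFD fit recovered 1.47% of 68 genes changed by a log2 of 1, 59.1% of 66 by 2 and 83.3% of 66 by 3, with 4 false calls. The changed genes were drawn only from those with higher mean CPM, which leaves out scarce members such as Pex11a, Acot1, Acot2, Etfb and Fabp3. These recovery shares do not hold for them. The common biological coefficient of variation was 0.628. The labels do not say that libraries came from separate animals, so p-values measure the spread between these libraries, which may be technical. No 2 libraries agreed within sampling noise.

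All 32 members are named. Values of every library are given for the regulators, the tested PPAR targets, members of other roles with an unadjusted p under 0.1 and the member of each role highest per length. Of other pathway genes up to 3 per list and direction with an unadjusted p under 0.05 are named, with Pparg, Rxra and Lpl; 1 gene that this rule names is not reported here. Hadh, Cpt1a, Crat, Adipoq and Fabp4 are detailed after their values were seen. The members and lists were chosen with earlier results of these data known. Levels per length divide CPM by merged exons of the annotation, and shared stretches are 50-base runs of the longest transcript found in other genes. Promoters are RefSeq windows of GRCm38.p6, matched by symbol for 29 members; Acaa2, Angptl4 and Decr1 had none.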

Additional observations from a re-analysis of the deposited data

Results flagged for a closer look

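In 5 of 46 groups of 4 LFD libraries tested, 1 library lay far from the other three by Dixon's criterion at the 95% level, which chance gives in about 1 of 20 groups. LFD 1 stood apart for Cpt2 (44.2 CPM, against 18.4, 19.5 and 21.7 in LFD 2 to 4), for Acads (13.2 CPM, against 8.82, 8.52 and 8.05) and for Ppara (0.195 CPM, against 0 in the others, which is 5 counts). It also had the lowest share of counts in megakaryocyte markers (0.00189%, against 0.00308%, 0.00319% and 0.00313%). LFD 2 stood apart for Acot2, at 7.07 CPM, against 1.01, 1.74 and 1.33 CPM in LFD 1, 3 and 4. Groups of 3 HFD libraries were too small for this criterion.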

How the results depend on the processing

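The count of members passing an adjusted p of 0.05 was 0 in all 13 alternatives. Marker shares (112 values) kept their direction and none passed. With a library left out, too few assignments remain for any p under 0.05 in the exact permutation test. Those share tests could therefore not have passed, whatever the values. The medians by role (65 values) moved by less than the replicate spread, but with a library left out those of electron transfer (-0.18 to 0.10) and peroxisomal members (-0.03 to 0.21) crossed 0. At an unadjusted p under 0.05, members higher in HFD numbered 3, against 1 with the erythroid share as a covariate and 1 to 3 with a library left out. Members lower in HFD numbered 0, against 3 in DESeq2 (Ucp2, Cd36, Cat) and 1 in limma-voom (Ucp2). They numbered 1 with the replicate block (Acsl1) and 0 to 3 with a library left out. Shares of all genes at an unadjusted p under 0.05 are not given for these settings, so the counts have no background beside them. The numbers do not pair the libraries: same-numbered libraries had correlations of -0.095, 0.026 and -0.062. With the block, log2 fold changes were 2.83 for Angptl4, 0.75 for Slc25a20 and 3.62 for Pex11a.

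Of 388 log2 fold changes of members under alternatives, 40 changed sign, none of them called in either direction, and 14 of 30 members never did, Angptl4, Slc25a20, Pex11a, Ucp2, Cat and Acsl1 among them. The cause of these changes was not tested. With the erythroid share they were 0.040 for Cd36, -0.29 for Cpt2, 0.11 for Acadl, 0.14 for Hadha, 0.093 for Hadhb, -0.071 for Hadh, 0.29 for Acaa2 and 0.045 for Etfdh. In limma-voom they were 0.36 for Ppard, 0.28 for Fabp3, 0.015 for Acadvl and 0.15 for Acaa2. With the block they were 1.84 for Ppard, 0.14 for Eci1, 0.079 for Decr1 and 0.045 for Acaa1a. Cpt2 had -0.012 with RLE and -0.0041 in DESeq2. With a library left out, ranges crossing 0 were -1.34 to 0.034 for Ppard, -0.043 to 1.258 for Acot2, -0.70 to 0.25 for Fabp3, -0.13 to 0.40 for Cpt2, -0.34 to 0.015 for Acadm, -0.19 to 0.10 for Acaa2, -0.19 to 0.12 for Eci1, -0.27 to 0.082 for Decr1, -0.18 to 0.14 for Etfdh and -0.25 to 0.051 for Acaa1a. Depth limits Ppara, Ppard, Ppargc1a, Pex11a and Fabp3, which had few counts.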
